A study of Mus musculus with 15 samples.

Results

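The 3 mammary tumors labelled TRIM24 overexpression and Carcinosarcoma were compared with the 3 tumors titled Non-TRIM24, which makes 6 of the 15 RNA-seq libraries of the series. The carcinosarcomas came from mice 64, 567 and 897 of strain FVB, in which a FLAG-tagged mouse Trim24 cDNA, inserted as 1 copy by a piggyBac transposon behind a floxed stop, was switched on by an MMTV-Cre transgene. MMTV-Cre acts mainly in mammary epithelium. The non-TRIM24 tumors (219, FVB001 and FVB002) arose spontaneously. They are labelled as strain FVB, genotype unknown and subtype Carcinoma, whereas the study describes their background as FVB or FVB/129. Ages were not given in the labels. Every carcinosarcoma was sequenced in batch 1 and every non-TRIM24 tumor in batch 2. A per-gene batch shift was therefore taken from the 2 mice that have a library in each batch, control gland 133 and TRIM24 carcinoma 3956, so that 10 libraries entered the fit. The study's pathologists did not give the same call for tumor 567. Each tumor carries a mouse number of its own. The p-values rest on the spread between these tumors and on how far mice 133 and 3956 disagree in batch shift. They also carry the error of that shift. The values are TPM, the share of a gene among all transcripts corrected for its length.

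Metaplastic carcinosarcomas are rare mammary tumors in which a carcinoma also holds spindle-shaped, mesenchymal tissue. Epithelial cells are held together by cadherin, claudin and desmosome proteins, and transcription factors such as Snai1, Zeb1 and Twist1 repress the genes of these junctions while cells take on mesenchymal features, a change called the epithelial-mesenchymal transition (EMT). TRIM24 is a chromatin reader of the TIF1 family that binds modified histone H3 and restrains p53. The question of the comparison was which genes set the carcinosarcomas apart from mammary tumors that arose without the transgene.

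Trim24 itself did not set the groups apart. Its level was 10.6, 12.02 and 14.5 TPM in tumors 64, 567 and 897, and 5.34, 9.34 and 10.04 TPM in 219, FVB001 and FVB002. The carcinosarcomas were thus the higher group as deposited, but mice 133 and 3956 also had 14.5 and 16.5 TPM in batch 1 against 11.1 and 11.5 TPM in batch 2. After the batch shift a log2 difference of 0.14 remained for Trim24 (standard error 0.42, limma adjusted p = 0.876), which turned to -0.09 under median-ratio scaling. Transgene and endogenous transcripts were counted together, and the genotype label was not supported by this RNA level. The study's own evidence includes PCR genotyping, FLAG and TRIM24 antibody staining of tumors, and Trim24 qRT-PCR against Cre-only glands. It describes the rise seen by qRT-PCR as predicted by its RNA-seq. In the deposited batch 1 values, however, Cre-control glands had 14.5 to 22.4 TPM of Trim24, against 10.6 to 14.5 TPM in the carcinosarcomas. No carcinosarcoma was thus above a Cre-control gland of its batch, and this difference was not tested. The study also describes TRIM24 as regulated after transcription. Protein was not measured in these libraries. The other tested TIF1 genes overlapped between the groups too, Trim28 at 158 to 208 TPM against 152 to 246 TPM and Trim33 at 14.1 to 16.9 TPM against 5.17 to 14.4 TPM.

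Among the non-TRIM24 tumors, 219 and FVB001 were unlike each other. Spearman's correlation over the 14120 tested genes was 0.782 between 219 and FVB001, which is within the range of 0.745 to 0.807 found between the groups, whereas FVB002 had correlations of 0.922 with 219 and 0.913 with FVB001, and the carcinosarcomas had 0.917 to 0.938 with one another. The median standard deviation over genes was close in the 2 groups, 0.345 and 0.359 on the log2 scale. The summed level of 17 adipocyte markers was 247 TPM in 219, 69734 TPM in FVB001 and 34422 TPM in FVB002, against 211 to 364 TPM in the carcinosarcomas. Adipoq, the fat-cell hormone adiponectin, was at 3.31 TPM in 219, 4315 TPM in FVB001 and 1525 TPM in FVB002. Tumor FVB001 is labelled Carcinoma, but its epithelial cell adhesion molecule Epcam (36.4 TPM) equalled that of carcinosarcoma 567 (36.4 TPM), and its milk protein genes summed to 2812 TPM against 42526 TPM in 219. FVB002 lay between the other two: of 4912 genes with a standard deviation over 0.5 (log2) among these tumors, FVB002 held the middle value for 83.9%, compared with 44.8% for the most central carcinosarcoma, 64. A blend of 55% of the TPM of 219 and 45% of FVB001 came within a median of 0.18 log2 units of FVB002, compared with 0.31 to 0.40 for the best blends among carcinosarcomas. Whether the FVB002 library is independent of the other two was not tested, and the calls and list counts are given with and without it. In whole tumors, fewer cells of a type and less RNA per cell cannot be told apart.

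**Figure D1:**
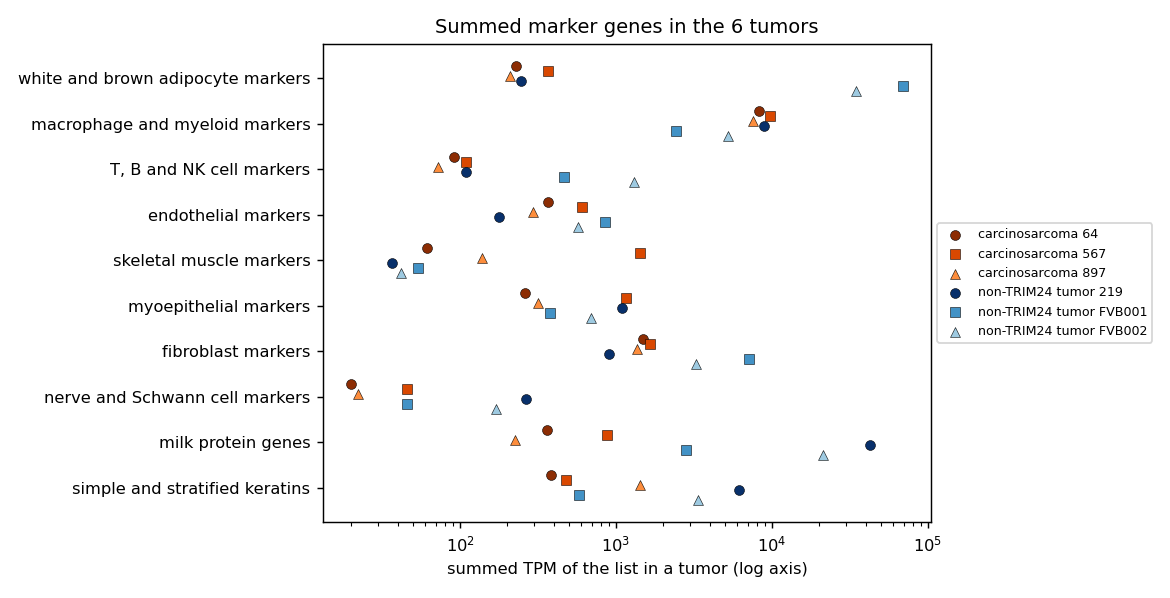
Summed TPM (log axis) of 10 marker gene lists in each of the 3 carcinosarcomas (orange) and 3 non-TRIM24 tumors (blue). Adipocyte markers reach 69734 TPM in FVB001 and 34422 TPM in FVB002 but 247 TPM in 219, and FVB002 lies between 219 and FVB001 in 9 of the 10 lists.

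Across all genes, 3 of 14120 passed the test (0.0212%), 2 higher (0.0142%) and 1 lower (0.00708%) in the carcinosarcomas (limma on log2(TPM + 1) with a batch term, two-sided, Benjamini-Hochberg adjusted p under 0.05). At an unadjusted p under 0.05 there were 2685 genes, or 19% of those tested. After the batch shift, all 3 carcinosarcomas lay above all 3 non-TRIM24 tumors for 29.7% of genes and below them for 11.1%, or 40.8% together, counts that are read here as the background for each gene list. When all 15 libraries were fitted together with the repeat libraries of a mouse linked, so that the other groups also informed the spread and the batch shift, 609 genes (4.31%) were past the threshold as higher and 288 (2.04%) as lower, 6.35% together. The median log2 difference over all genes was 0.23. Leaving out a tumor raises these shares by construction: they were 33.6% higher and 11.4% lower without FVB002, 33% and 17.3% without FVB001, and 34% and 21.1% without 219. The list counts below were the same without FVB002, except that 1 more gene was higher among the CDK inhibitor, Rb and p53 target genes, Met and PI3K components, hypoxia, Wnt and YAP-TEAD genes and lymphocyte markers. Such counts turn on the outermost tumors of a group, and FVB002 was the middle one for 83.9% of the variable genes. Leaving it out could therefore change few of them, and the counts cannot show whether FVB002 is independent. Without FVB002, 0 genes passed the test (2192 at an unadjusted p under 0.05). Median-ratio scaling moved the median to -0.00 and changed the non-overlapping shares to 20.6% higher and 18% lower, so that 53.4% rather than 72.7% of the non-overlapping genes were higher. An exact permutation test of 3 against 3 tumors cannot give a p below 0.1.

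2 genes of the cell surface rose and a retinol-binding gene fell. Gpc1 (chromosome 1, 92831645 to 92860779, GRCm38) encodes glypican-1, a heparan sulfate proteoglycan that holds growth factors at the membrane. It was at 164, 152 and 136 TPM in tumors 64, 567 and 897 and at 16.4, 16.7 and 14.4 TPM in 219, FVB001 and FVB002. The log2 difference was 3.13 (standard error 0.27, limma adjusted p = 0.0438), and the 2 groups were far apart with little spread in either. Steap1 (chromosome 5, 5736317 to 5749326) encodes a membrane protein of the metalloreductase family. Its values were 41.4, 39.9 and 63.0 TPM in the carcinosarcomas and 1.23, 0.48 and 0.54 TPM in the non-TRIM24 tumors, a log2 difference of 4.80 (standard error 0.45, limma adjusted p = 0.0438). Rbp7 (chromosome 4, 149449687 to 149454978), a cytosolic retinol-binding protein found in mammary gland and fat, fell by 5.38 on the log2 scale (standard error 0.54, limma adjusted p = 0.0458). Its 11.7, 5.58 and 4.21 TPM stood against 347, 297 and 313 TPM, so 219, with almost no adipocyte transcripts, was as high as the fat-rich FVB001. The batch shift of Gpc1, Steap1 and Rbp7 was 0.04, 0.01 and -0.01 log2 units. TRIM24 carcinoma 3956 had 71.6 and 69.3 TPM of Gpc1 in its batch 1 and batch 2 libraries. It had 27.5 and 22.1 TPM of Steap1, and 2.95 and 2.09 TPM of Rbp7. In all 3 genes this carcinoma thus lay on the carcinosarcomas' side of the non-TRIM24 tumors. Without FVB002 the limma adjusted p was 0.195 for each and the log2 differences of Gpc1, Steap1 and Rbp7 were 3.07, 4.72 and -5.39. Gpc1 and Steap1 also missed the threshold without 64, 567 or 897, and Rbp7 without 567 or 897 (adjusted p from 0.0572 to 0.0822), while all 3 stayed past it without 219 or FVB001.

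**Figure D2:**
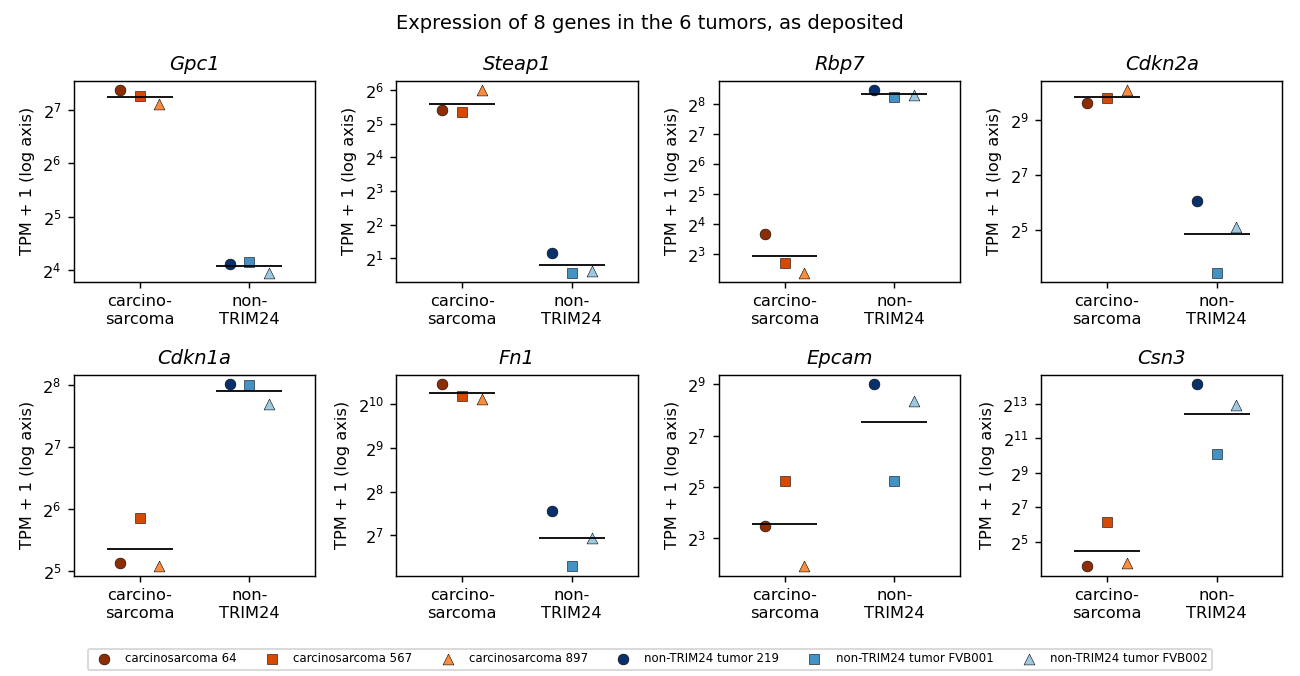
TPM + 1 (log axis, as deposited without the batch shift) of 8 genes in each tumor, with lines at the geometric means of TPM + 1 of the 3 tumors of a group. Gpc1, Steap1 and Rbp7 show narrow, separate groups, while Epcam runs from 36.4 to 516 TPM within the non-TRIM24 tumors.

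The next genes by p-value missed the threshold, with limma adjusted p from 0.057 to 0.071, and are given as values. On the higher side were genes of the extracellular matrix and of collagen processing: the collagen chaperone Fkbp10 (109 to 180 TPM against 17.96 to 26.8 TPM), the lysyl oxidase Loxl2 (84.8 to 112 against 8.03 to 13.2 TPM), the small leucine-rich proteoglycan Podnl1 (29.3 to 63.8 against 0.46 to 1.47 TPM) and the collagen-degrading protease cathepsin K, Ctsk (224 to 551 against 22.2 to 28.8 TPM). Foxf2, a mesenchymal forkhead factor, was at 6.72 to 11.4 TPM against 0.02 to 0.09 TPM. The growth cone protein Gap43 was at 24.8 to 76.3 TPM against 0 to 0.20 TPM, and Brinp3 was at 28.8 to 66.1 TPM against 0.17 to 0.39 TPM. Itgam, the myeloid integrin CD11b, the noncoding RNA Wincr1, and Dnajc13 were the others. On the lower side were the epithelial microtubule-anchoring Camsap3 (0.07 to 0.83 against 15.7 to 32.4 TPM), the keratin Krt79 (0.03 to 0.44 against 8.48 to 21.2 TPM), the choline transporter-like Slc44a3 (0.74 to 1.42 against 14.1 to 23.5 TPM), the protease inhibitor family member Wfdc12 (0.04 to 0.44 against 12.1 to 18.1 TPM), and Hrct1, Nrbp2, Ubd, Ddo, Mogat1, Spaar and Tesc. With Gpc1, Steap1 and Rbp7 these make 12 genes each way, of which 12 of the higher and 7 of the lower were past the threshold in the 15-library fit. Foxf2, Gap43, Brinp3, Camsap3, Krt79, Wfdc12, Ddo, Mogat1, Spaar and Tesc were under 1 TPM in all 3 tumors of 1 group. They were tested only through the other group, so their lack of overlap as deposited followed from the filter on low values.

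Epithelial junction genes were low in the carcinosarcomas. Of 17 tested, 9 were lower in all 3 carcinosarcomas and 0 were higher (background 11.1% and 29.7%), with a median log2 difference of -2.61 against 0.23 over all genes. None passed the 10-library test, 9 had an unadjusted p under 0.05, and 8 were past the threshold in the 15-library fit. Epcam was at 10.3, 36.4 and 2.73 TPM in 64, 567 and 897 and at 516, 36.4 and 321 TPM in 219, FVB001 and FVB002. With no batch shift 8 junction genes were lower, since Epcam in 567 (36.44 TPM) was not below FVB001 (36.42 TPM) as deposited. The tight-junction claudin Cldn7 was at 2.16, 9.97 and 0.73 TPM against 276, 21.2 and 150 TPM. Jup, the plakoglobin of both adherens junctions and desmosomes, was the most even of these, at 24.1, 44.2 and 29.9 TPM against 197, 112 and 155 TPM (log2 difference -2.38, standard error 0.47, limma adjusted p = 0.0869). Cdh1, E-cadherin, overlapped between the groups, since 567 had 18.9 TPM and FVB001 only 4.84 TPM. Without FVB001, all 17 junction genes were lower in the carcinosarcomas (17.3% of all genes were), and without 219 the number was 9 (21.1% of all genes).

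Genes that keep cells epithelial were low too. Of 14 tested gatekeeper and splicing genes, 10 were lower in all 3 carcinosarcomas and 1 was higher, with a median log2 difference of -3.16, and 8 of the 10 were past the threshold in the 15-library fit. Esrp1, an epithelial splicing regulator, was at 0.43, 1.55 and 0.19 TPM against 31.6, 2.77 and 27.7 TPM. Spint2, which inhibits the membrane proteases that activate hepatocyte growth factor, was at 12.2, 34.4 and 4.80 TPM against 620, 98.6 and 413 TPM. Elf5, a factor of the milk-secreting lineage, was at 0.80, 4.89 and 1.09 TPM against 132, 9.93 and 92.5 TPM. The exception was Klf5, at 8.03 to 9.75 TPM against 0.68 to 4.04 TPM. In Esrp1, Spint2 and Elf5, FVB001 was the non-TRIM24 tumor nearest to the carcinosarcomas. The number of gatekeepers lower was 10 without 219 (21.1% of all genes) and 13 without FVB001 (17.3%).

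The E-box CACCTG, which reads CAGGTG on the other strand, is the sequence known to be bound by Snail and Zeb factors, and its presence upstream of these genes is shown here because Snail and Zeb transcripts were also measured. No junction or gatekeeper gene passed the 10-library test, so the 19 that were lower in all 3 carcinosarcomas after the batch shift were examined. Epcam is among them only through that shift. Of these, 12 had an upstream window in RefSeq's table (GRCm38.p6), which gives 250 bases before the start site, and 9 of the 12 held the motif in at least 1 window, against 19.4% of all genes in the table. Over windows, 10 of 17 held it (58.8%), against 17.2% of all 32851 windows in the table, with some windows of a gene overlapping, such as the 2 of Crb3. Of 6 epithelial genes with a window whose groups overlapped, 3 held the motif too, in 4 of 9 windows. The windows of Epcam (chr17:87635729-87635978, plus strand), Crb3 (chr17:57061981-57062230, plus strand) and Rab25 (chr3:88548280-88548529, minus strand) are given 5′ to 3′ with the motif in capitals. Crb3 sets the apical pole of epithelial cells and Rab25 sorts vesicles to it.
Epcam: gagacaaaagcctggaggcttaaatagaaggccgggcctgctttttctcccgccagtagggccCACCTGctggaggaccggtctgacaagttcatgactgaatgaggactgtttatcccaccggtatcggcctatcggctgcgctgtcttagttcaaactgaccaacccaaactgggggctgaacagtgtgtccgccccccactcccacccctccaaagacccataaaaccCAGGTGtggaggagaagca
Crb3: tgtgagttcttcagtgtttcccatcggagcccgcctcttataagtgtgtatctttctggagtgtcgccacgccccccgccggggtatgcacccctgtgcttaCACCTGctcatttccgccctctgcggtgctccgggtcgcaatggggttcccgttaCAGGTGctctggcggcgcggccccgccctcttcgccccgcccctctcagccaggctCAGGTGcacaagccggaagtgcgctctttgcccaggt
Rab25: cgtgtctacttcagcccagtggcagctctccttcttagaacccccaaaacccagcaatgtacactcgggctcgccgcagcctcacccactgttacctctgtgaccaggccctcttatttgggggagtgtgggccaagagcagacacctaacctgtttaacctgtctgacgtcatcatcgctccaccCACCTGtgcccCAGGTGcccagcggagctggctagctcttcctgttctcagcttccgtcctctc
Counted back from the start site, the motif begins at -187 and -19 in Epcam, at -148, -93 and -37 in Crb3 and at -64 and -53 in Rab25. A match describes these letters only. Crb3 was at 0.41, 1.89 and 0.14 TPM in the carcinosarcomas and at 14.97, 2.80 and 9.12 TPM in the non-TRIM24 tumors, and Rab25 at 1.04, 4.45 and 0.45 TPM against 90.2, 8.24 and 44.9 TPM.

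Keratins differed by member. Of 12 tested, 6 were lower and 2 higher in all 3 carcinosarcomas (background 11.1% and 29.7%), with a median log2 difference of -3.08. The stress-induced keratin Krt6a had the largest difference of the list, at 0.21, 1.39 and 0.37 TPM against 503, 32.2 and 320 TPM (log2 difference -7.18, standard error 1.45, limma adjusted p = 0.0944). The simple-epithelial pair Krt8 and Krt18 overlapped between the groups: carcinosarcoma 897 had 914 TPM of Krt8 and 463 TPM of Krt18, below 219 (1836 and 1624 TPM) and above FVB001 (141 and 126 TPM). Tumors 64 and 567 had 130 and 239 TPM of Krt8. Keratin transcripts were therefore present in each carcinosarcoma. The genes on the higher side were Krt80 and Krt10, a keratin of stratified epithelium that was 10.8 to 17.7 TPM against 4.42 to 6.82 TPM.

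Milk protein genes had the largest differences of any list. Of 11 tested, 9 were lower in all 3 carcinosarcomas and 0 higher, with a median log2 difference of -6.21, and 5 were past the threshold in the 15-library fit. The casein Csn3 was at 10.8, 69.0 and 12.6 TPM in the carcinosarcomas and 18055, 1096 and 7886 TPM in the non-TRIM24 tumors (log2 difference -8.06, standard error 1.66, limma adjusted p = 0.0987). Glycam1, a mucin of milk, was at 0.40, 2.32 and 0.38 TPM against 1631, 138 and 960 TPM. Outside the list, the iron-binding protein Lcn2 reached 20296, 1739 and 10172 TPM in the non-TRIM24 tumors and 32.0, 114 and 22.0 TPM in the carcinosarcomas. Within each group the same tumor was highest in Csn3, Glycam1 and Lcn2, 567 among the carcinosarcomas and 219 among the non-TRIM24 tumors. Of 13 lineage factors and hormone receptors, 5 were lower in all 3 carcinosarcomas (Esr1, Prlr, Erbb3, Trp63 and Sox10) and Sox9 was higher. As deposited, Esr1 (1.00 to 1.54 against 1.30 to 7.67 TPM) and Trp63 (0.74 to 1.19 against 1.07 to 10.6 TPM) overlapped. With no batch shift 3 genes of this list were lower. Sox10, a neural crest and mammary progenitor factor, was at 0.43, 3.30 and 0.83 TPM against 233, 18.1 and 135 TPM, and the oxytocin receptor Oxtr, among the 5 of 12 myoepithelial markers that were lower, at 0.10, 1.64 and 0.06 TPM against 7.07, 32.1 and 18.4 TPM. With no batch shift 3 of the myoepithelial markers were lower and 1 was higher.

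**Figure D3:**
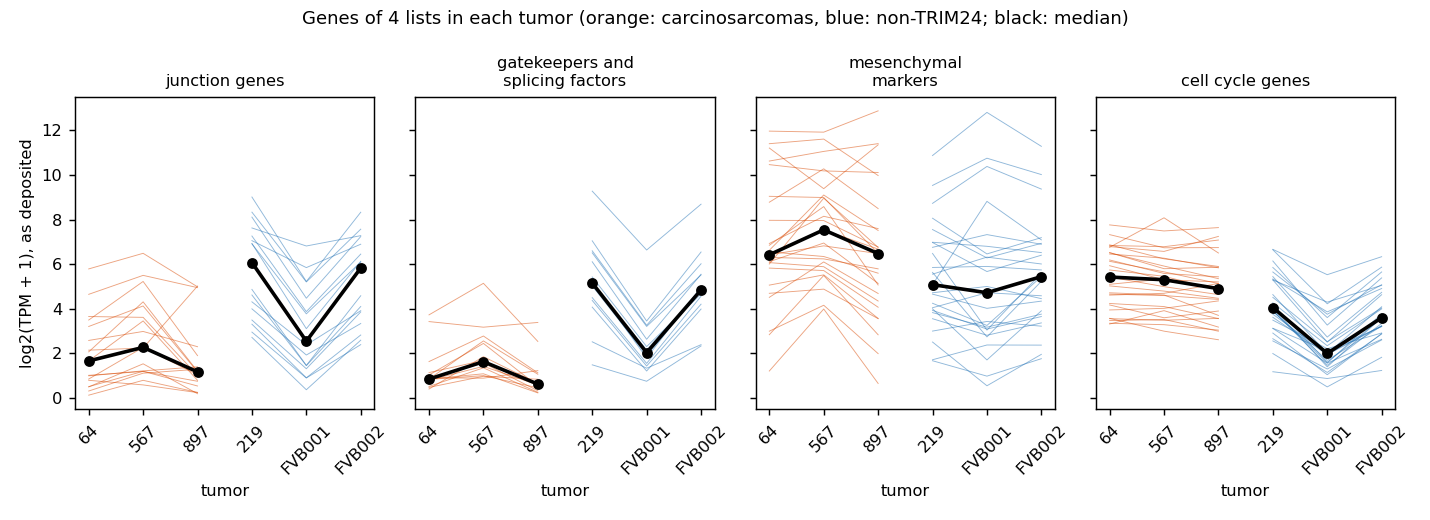
log2(TPM + 1) of each tested gene (thin lines) of 4 lists in each tumor, as deposited, with the list's median in black. In the junction and gatekeeper panels FVB001 drops to near the carcinosarcomas while 219 and FVB002 stay high, and the median of the cell cycle genes is lowest in FVB001.

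Mesenchymal genes lay on the other side. Of 25 EMT markers tested, 12 were higher in all 3 carcinosarcomas and 0 lower (background 29.7% and 11.1%), with a median log2 difference of 1.45, and 5 were past the threshold in the 15-library fit. Fn1, the matrix protein fibronectin, was at 1416, 1165 and 1109 TPM against 187, 76.9 and 122 TPM (log2 difference 3.46, standard error 0.51, limma adjusted p = 0.0707). The intermediate filament Vim was at 1583, 2136 and 2722 TPM against 424, 1338 and 661 TPM, and the calcium-binding S100a4 at 2374, 670 and 2621 TPM against 32.9, 451 and 136 TPM. For both, the fat-rich FVB001 was the highest non-TRIM24 tumor. Of 8 EMT transcription factors, 7 were higher in all 3 carcinosarcomas, with differences of modest size (median 1.41) and 0 past the threshold in either fit. Snai1 was at 62.8, 63.2 and 53.4 TPM against 35.1, 8.92 and 20.6 TPM, and Zeb1 at 12.1, 16.9 and 15.4 TPM against 1.09, 6.11 and 3.58 TPM. The number was 7 without each non-TRIM24 tumor in turn. Of 12 fibroblast markers, 2 were higher and 1 lower in all 3 carcinosarcomas, with a median of -0.32, and their sum was 1358 to 1652 TPM in the carcinosarcomas against 897 TPM in 219 and 7146 TPM in FVB001.

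Collagens and matrix proteases were also mostly on the higher side. Of 16 collagens tested, 7 were higher in all 3 carcinosarcomas and 0 lower (median 1.52), and 1 was past the threshold in the 15-library fit. The fibrillar collagen Col1a2 ran from 457 to 4185 TPM among the carcinosarcomas and from 108 to 210 TPM among the non-TRIM24 tumors. The basement-membrane collagens Col4a1 and Col4a2 overlapped, and Col11a1 was at 0.44 to 6.14 TPM against 2.13 to 25.8 TPM. Of 17 proteases and inhibitors, 12 were higher in all 3 carcinosarcomas and 0 lower (median 1.62), and 6 were past the threshold in the 15-library fit. Mmp14, the membrane protease that activates Mmp2, was at 346, 380 and 207 TPM against 66.9, 32.7 and 59.3 TPM. Mmp3, stromelysin-1, was at 249, 350 and 771 TPM against 66.9, 3.72 and 9.21 TPM. Cthrc1, a secreted glycoprotein of collagen-rich repair tissue, was among the 8 largest differences on the higher side among genes with no overlap, at 184, 152 and 178 TPM against 15.04, 1.18 and 3.45 TPM.

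The cell cycle inhibitors differed in direction. Cdkn2a, which encodes p16 and p19Arf, was at 780, 887 and 1074 TPM in the carcinosarcomas and 65.6, 10.01 and 33.8 TPM in the non-TRIM24 tumors (log2 difference 4.63, standard error 0.93, limma adjusted p = 0.0944). Its neighbour Cdkn2b, p15, was at 85.0, 86.5 and 83.9 TPM against 36.3, 15.96 and 25.6 TPM. Cdkn1a, the p53 target p21, was at 34.2, 57.3 and 32.8 TPM against 258, 256 and 207 TPM (log2 difference -2.60, standard error 0.39, limma adjusted p = 0.0707). Trp53 was 26.5, 33.5 and 11.3 TPM against 79.2, 37.2 and 55.3 TPM. Of the 20 CDK inhibitor, Rb and p53 target genes tested, 5 were higher and 8 lower in all 3 carcinosarcomas, a median of -0.61. Those lower included, beside Cdkn1a and Trp53, the p53 targets Ccng1, Bbc3, Sesn2, Trp53inp1 and Eda2r and the retinoblastoma gene Rb1. As deposited, Trp53inp1 (3.46 to 6.46 against 4.76 to 9.63 TPM) and Eda2r (0.64 to 2.16 against 1.43 to 2.08 TPM) overlapped, and with no batch shift 6 genes of the list were lower and 6 higher. The p53 targets Mdm2, Bax, Zmat3 and Gdf15 overlapped with the shift too. For Cdkn2a and Cdkn1a the 15-library fit was past the threshold (limma adjusted p = 0.0127 and 0.0205).

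Cell cycle genes were higher in all 3 carcinosarcomas for 23 of 27 tested, and lower for 0 (median 1.77, range 0.48 to 2.85). Of these, 16 had an unadjusted p under 0.05 and 4 were past the threshold in the 15-library fit. The E2F target Ccne2 was at 10.1, 10.5 and 6.97 TPM against 1.26, 0.83 and 1.35 TPM, and the topoisomerase Top2a at 114, 109 and 135 TPM against 42.6, 5.64 and 25.7 TPM. In each of these 2 genes FVB001 was the lowest tumor. Without FVB001 the number higher in all 3 carcinosarcomas was again 23. E2f1 itself was at 30.7, 31.7 and 13.9 TPM against 7.51, 5.65 and 6.17 TPM.

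Met, the receptor for hepatocyte growth factor, overlapped between the groups. It was at 227, 777 and 792 TPM in the carcinosarcomas and at 232, 22.6 and 240 TPM in the non-TRIM24 tumors, a log2 difference of 1.80 (standard error 1.44, limma adjusted p = 0.52). Tumors 64, 219 and FVB002 had about the same level, 567 and 897 were higher and FVB001 was lower. Its ligand Hgf was at 12.2, 3.76 and 17.5 TPM against 0.23, 0.86 and 1.19 TPM. Of 24 Met and PI3K-AKT-mTOR components, 8 were higher and 2 lower in all 3 carcinosarcomas, shares near the background, with a median of 0.48. The regulatory subunit Pik3r1, which restrains the kinase, was lower (5.75 to 10.8 against 15.6 to 26.9 TPM), as was Egfr (2.65 to 4.42 against 5.40 to 9.03 TPM). The catalytic subunits Pik3ca and Pik3cd were among the higher, at 24.8 to 27.1 against 11.04 to 18.3 TPM and 6.86 to 13.02 against 3.96 to 5.70 TPM.

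Glycolysis genes differed enzyme by enzyme. Of 20, 9 were higher and 1 lower in all 3 carcinosarcomas (median 0.71), and 4 were past the threshold in the 15-library fit. With no batch shift 8 were higher and 2 lower, since Gpi1, at 339 to 352 TPM against 409 to 458 TPM, was lower as deposited. Pfkm, the muscle form of phosphofructokinase, was at 49.9, 52.6 and 43.9 TPM against 13.7, 15.3 and 15.4 TPM (log2 difference 1.83, standard error 0.29, limma adjusted p = 0.0707). The lactate exporter Slc16a3 was at 73.9, 110 and 160 TPM against 26.8, 3.03 and 13.2 TPM, whereas the hexokinase Hk2 was at 20.6 to 32.7 TPM against 42.3 to 74.1 TPM. Hypoxia target genes had 4 of 14 higher and 0 lower, near the background, and a median of 0.23, which equals that over all genes. Retinoic acid genes were near the background as a list. Beside Rbp7, the binding protein Crabp1 was at 186, 573 and 137 TPM against 15.7, 0.93 and 1.76 TPM (log2 difference 5.69, standard error 1.32, limma adjusted p = 0.111), and 3 of the 16 tested were higher and 2 lower in all 3 carcinosarcomas.

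Among immune genes, macrophage markers were high and interferon-stimulated genes overlapped. Of 20 macrophage and myeloid markers, 12 were higher in all 3 carcinosarcomas and 0 lower (median 1.43), and 4 were past the threshold in the 15-library fit. Itgam was at 23.8, 30.5 and 24.0 TPM against 4.01, 4.35 and 4.07 TPM (log2 difference 2.21, standard error 0.31, limma adjusted p = 0.0707), and the scavenger receptor Msr1 at 48.8, 55.9 and 59.9 TPM against 11.3, 3.41 and 7.84 TPM. The summed level of the 21 markers overlapped between the groups: it was 7549 to 9725 TPM in the carcinosarcomas, 2445 TPM in FVB001, 5273 TPM in FVB002 and 8860 TPM in 219, where Spp1 alone, which tumor cells also make, was at 5980.0 TPM. Of 20 interferon-stimulated genes, 0 were separated in either direction, with a median of -1.35. Isg15 was at 124, 51.7 and 42.4 TPM against 693, 69.8 and 452 TPM, FVB001 again being the low one. Without FVB001, 18 of the 20 were lower in all 3 carcinosarcomas, as were 17.3% of all genes. Of 15 antigen presentation genes 4 were lower, the class I light chain B2m at 2575, 2056 and 1578 TPM against 6201, 5191 and 4673 TPM and H2-D1 at 514 to 1064 TPM against 2500.1 to 3523 TPM, with Nlrc5 and Psmb9. The class II gene H2-Aa and Ciita, the activator of class II genes, were higher, 2 of the 15 (background 29.7%), while H2-Ab1, H2-Eb1, Cd74 and H2-DMa overlapped. As deposited H2-Aa overlapped too, at 597 to 1558 against 341 to 819 TPM. With no batch shift 1 antigen presentation gene was higher and 5 were lower. Of 19 lymphocyte markers, 5 were higher and 1, Ighm, was lower in all 3 carcinosarcomas (median 0.18, background 29.7% and 11.1%). With no batch shift 2 were higher and 1 lower. The summed level of 20 lymphocyte markers was 72.0 to 110 TPM in the carcinosarcomas against 109, 463 and 1299 TPM in 219, FVB001 and FVB002.

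Genes of embryonic and other tissues differed in single members. The chromatin protein Hmga1 was at 365, 649 and 400 TPM against 38.8, 7.41 and 25.1 TPM (log2 difference 4.44, standard error 0.85, limma adjusted p = 0.0867), and Hmga2 and Igf2bp2, of 7 oncofetal genes tested, were also higher in all 3 carcinosarcomas, while Peg3 was lower. Ankrd1, a target of YAP and TEAD, had the largest difference on the higher side among genes with no overlap, at 146, 443 and 83.6 TPM against 2.61, 0.20 and 1.37 TPM (log2 difference 5.98, standard error 0.99, limma adjusted p = 0.0719). Of 11 YAP-TEAD genes, a list that holds Yap1, Wwtr1, Tead1 and Tead4 themselves beside target genes, 4 were higher (Ankrd1, Ccn1, Axl and Ajuba) and 0 lower. The background was 29.7% and 11.1%, and the median of the list was 0.71. With no batch shift 8 of the 11 were higher. Of 18 cartilage and bone genes, 8 were tested. The chondrocyte proteoglycan Acan (16.3, 1.73 and 2.45 TPM against 0.02, 0 and 0.01 TPM), Runx2 and Sox9 were higher, and Alpl, Col9a1 and Dmp1 were lower. Acan was under 1 TPM in all 3 non-TRIM24 tumors, and Col9a1 and Dmp1 in all 3 carcinosarcomas. They passed the filter on low values only through the other group, which fixed their non-overlap as deposited in advance. TGF-beta genes were higher for 8 of 14 and lower for 0 (median 1.17, background 29.7% and 11.1%). Wnt genes were higher for 3 and lower for 1 of 14 (median 0.32), and endothelial markers for 1 and 0 of 12 (median 0.19). The counts of these last 2 lists were near or below the background. Nerve and Schwann cell markers had 2 of 7 higher, near the background, and 2 lower (median -0.16), 1 of the latter being Sox10. Skeletal muscle markers were higher for 7 of 10 (median 3.09), and their sum was 1417 TPM in 567 against 61.7 TPM in 64, 138 TPM in 897 and between 36.4 and 53.8 TPM in 219, FVB001 and FVB002, with 567 the highest. Of 14 adipocyte markers tested, 0 were higher and 3 lower, with a median of -4.64, and all 14 were lower without 219, as were 21.1% of all genes. Of 12 genes that the study checked by qRT-PCR, and so chose on these samples, Cdkn2a, Vim and Fn1 were higher and Trp53, Vtcn1 and Sncg lower. The part of muscle and fat tissue in the differences between the groups was not tested.

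Carcinosarcoma 897 had 35 tested genes at least 4-fold above every other tumor, where 64 had 32 and 567 had 53, and 7 of the 35 lay near one another on chromosome 9. Within 1.2 Mb of Yap1, which encodes the transcription cofactor of the Hippo pathway, 14 protein-coding genes reached 3 TPM in a tumor, and these neighbours were picked after their values had been seen. Yap1 itself was at 33.2, 47.5 and 1011 TPM in 64, 567 and 897 and at 28.9, 17.4 and 30.4 TPM in 219, FVB001 and FVB002. Tumor 897 was thus the only 1 of the 6 tumors with a high level. Dcun1d5, which acts in neddylation, was at 3679 TPM in 897 and at 29.2 to 135 TPM in the other 5 tumors. The apoptosis inhibitors Birc2 and Birc3 were at 113 and 323 TPM in 897 against 6.12 to 12.3 and 6.84 to 28.5 TPM in the others. In all, 9 of the 14 were at least 4-fold higher in 897 than in every other tumor (on TPM + 1). Mmp3 and Mmp10 lie in the same window and Mmp13 and Mmp12 too, but the last of these were highest in 567 (895 and 524 TPM). The high level of Yap1 in 897 did not extend to Ankrd1, for which 897 had the lowest value of the carcinosarcomas, 83.6 TPM. Near Met on chromosome 6, Tes, Capza2 and St7 had, like Met, their lowest value in FVB001, at 142, 128 and 29.95 TPM, as did Cav2 and Tfec. Tes, Capza2 and St7 were at 1172 to 3454, 1877 to 4280 and 138 to 393 TPM in the carcinosarcomas. Tumor 219 had 2167, 1484 and 240 TPM of them and FVB002 had 1295, 965 and 127 TPM. Tes and St7 thus overlapped between the groups.

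**Figure D4:**
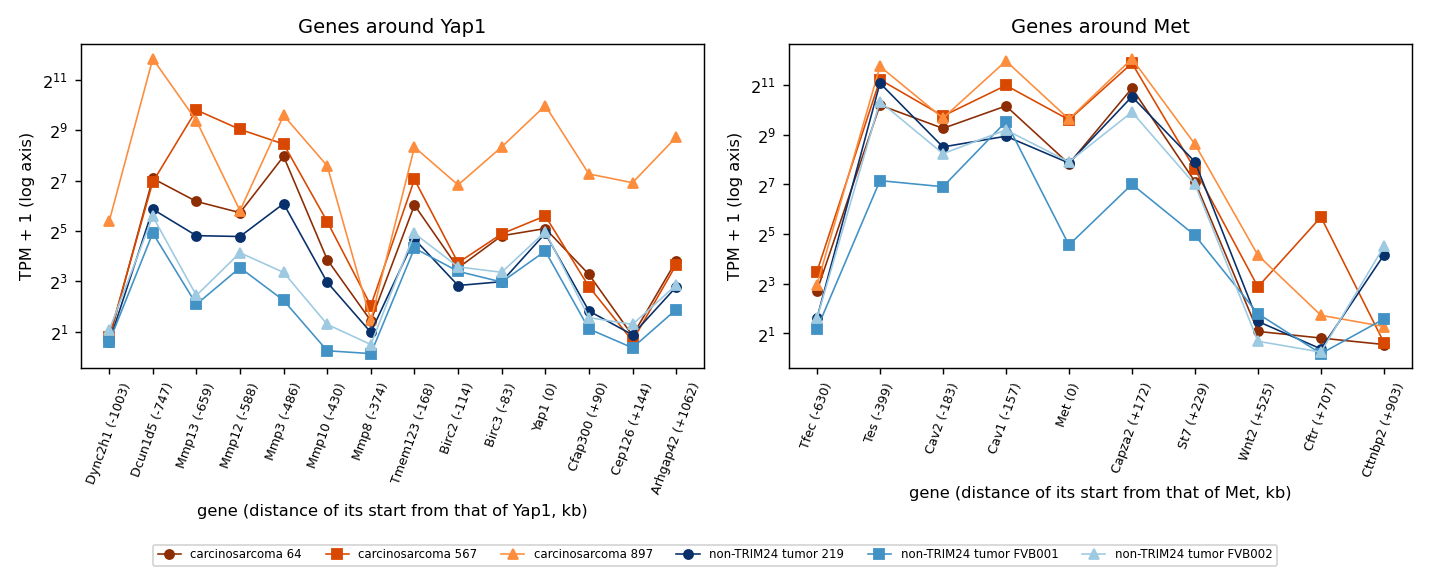
TPM + 1 (log axis) of protein-coding genes around Yap1 and around Met, by distance in kb from each, with a colour for each tumor. Around Yap1 tumor 897 lies far above the other 5 for 9 of 14 genes, and around Met tumor FVB001 is lowest for Met, Tes, Capza2 and St7.

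**Figure D5:**
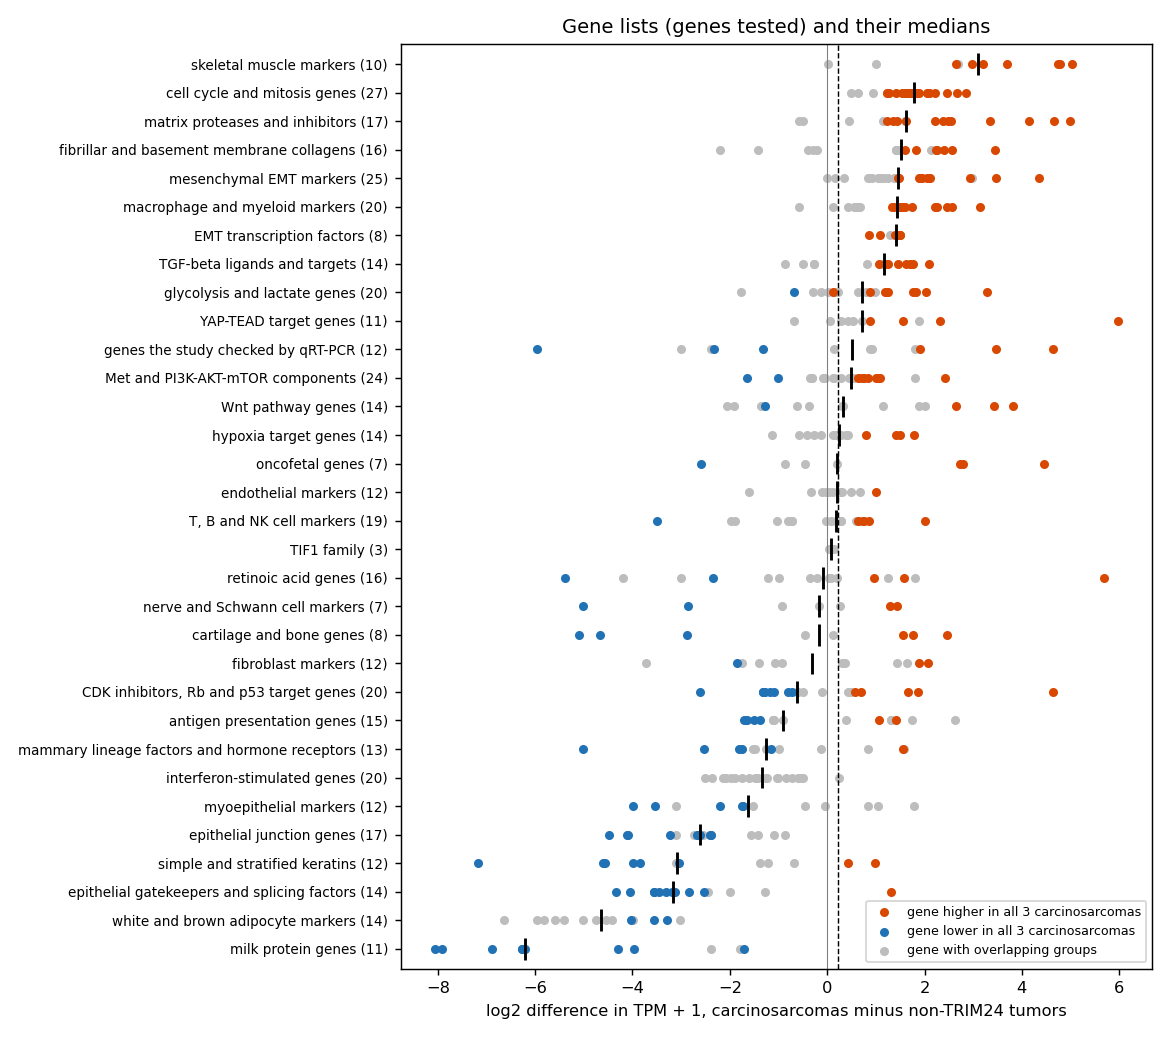
Log2 difference of every tested gene of 32 lists (points) with the list's median (black bar), ordered by median. Orange points are higher and blue points lower in all 3 carcinosarcomas than in all 3 non-TRIM24 tumors after the batch shift, grey points overlap, and the dashed line is the median over all genes at 0.23.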

How the data were processed

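RNA-seq of mouse mammary tumors and glands was deposited in 2 tables, 1 per sequencing batch. The deposited values are TPM, which the authors estimated with RSEM from STAR alignments to GRCm38. TPM have the same total in every library and keep no depth, so the counting error of low values is not known. Symbols and coordinates were taken from GENCODE M21.

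A gene was tested when it had at least 1 TPM in at least 3 of the 6 tumors. A gene under 1 TPM in all 3 tumors of 1 group can pass only through the 3 tumors of the other. Its non-overlap as deposited is then fixed in advance, also where it is a member of a list. The model for log2(TPM + 1) was limma's (version 3.58.1, under R 4.3.3, moderated with a variance trend, 5 residual degrees of freedom), with a level for each tumor group and for each of the mice 133 and 3956, and a batch term. Levels set side by side in the text are as deposited and come from tables of separate batches. Fold changes are on the log2(TPM + 1) scale, which understates changes of low genes. "Higher in all 3" counts add the batch shift, the mean of both mice, to batch 2. The 15-library fit takes a correlation between the libraries of a mouse from duplicateCorrelation. Gene lists hold 488 distinct genes, 18 of them in more than 1 list.

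Named genes are, per direction, at most 12 by smallest p and at most 8 by largest difference, among genes with no overlap and no clone name, and members of the lists. Small noncoding RNAs that the rule gives are in the closing section. Neighbours of Yap1 and Met were picked with their values in view. The members and lists were chosen with earlier results of these data known, and the genes checked by the study with qRT-PCR were chosen by it on these samples. Scripts were tested on simulated data. Alternatives changed pseudocount, filter, scaling, batch shift, libraries in the fit and covariates, and left out each tumor.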

Additional observations from a re-analysis of the deposited data

How the results depend on the processing

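The number of genes past the threshold, 3 as reported, was 4 with a pseudocount of 5 TPM, 3 without mitochondrial genes or with protein-coding genes only (the last chosen after seeing the data) and 2 with no variance trend. It was 12 with a minimum of 5 TPM, 28 with median-ratio scaling, 34 with quantile normalization, 22 with all 15 libraries and a batch term, 897 with libraries of a mouse linked, 1966 with the shift subtracted as known, and 3182 with no batch shift. The limma count was 0 with a pseudocount of 0.1 TPM (2672 at an unadjusted p under 0.05), with no filter (4008), with the shift from mouse 133 (1179) or 3956 alone (925) and with an adipocyte covariate (2683). Leaving out each tumor gave 0 to 693 genes, with 1 without 64, 0 without 567 (2430 unadjusted), 1 without 897, 597 without 219, 693 without FVB001 and 0 without FVB002 (2192 unadjusted). The 3 genes were all among those called in 11 of 22 settings, and the cause of these changes was not tested. The Trim24 log2 difference turned to -0.0893 with median-ratio scaling, -0.0567 with quantile normalization and -0.0350 with all 15 libraries and a batch term. Over the left-out tumors it ran from -0.107 (without 219) to 0.293 (without FVB002) for Trim24, and from -1.76 (without FVB001) to 0.0816 (without 219) for Krt8. Batch and group cannot be told apart except through 2 mice, and unknown depth leaves low values without a counting error. No paired analysis was possible because the replicate numbers only name the tumors in accession order.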

Other observations

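The rule for named genes also gave 2 small noncoding RNAs and a muscle gene. Snora64 was at 11.3, 7.86 and 8.73 TPM in tumors 64, 567 and 897 and was listed at 0 in 219 and FVB001, with 1.89 TPM in FVB002. Rny1 was listed at 0 in 64 and 567, and was at 47.0 TPM in 897 and at 37.2, 97.3 and 49.8 TPM in 219, FVB001 and FVB002, so that its place among the lower genes rests on the batch shift. Tnnc2, a calcium-binding subunit of fast skeletal muscle troponin, was at 7.99, 179 and 25.6 TPM in the carcinosarcomas and at 0.23, 0.30 and 0.37 TPM in the non-TRIM24 tumors.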
